A study of Mus musculus with 6 samples.

Results

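Expression of 10 inflammatory genes was measured in whole liver, by sequencing of polyadenylated RNA, as 3 KO and 3 WT libraries. The genes were chosen by name from the 55416 gene IDs of the deposited count table. They are the cytokines Il1a, Il1b, Tnf, Il6, Il10 and Il18, the inflammasome sensor Nlrp3, the NF-kB feedback inhibitors Tnfaip3 and Nfkbia, and the macrophage growth factor Csf1. All 10 were found in the table, and 8 passed the filter on low counts that left 17083 genes to test. Il6 and Il10 did not pass it.

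All animals were male, carried the floxed Ephb2 allele on both chromosomes (Ephb2flox/flox) and were 8 to 10 weeks old when tamoxifen was injected on 5 consecutive days. KO animals also carried PdgfrbCreERT2, a recombinase that tamoxifen activates and that is made where the Pdgfrb promoter is active, which in liver means stellate cells and other mesenchymal cells. WT animals lacked Cre. All of them then ate a choline-deficient diet of defined amino acids for 8 weeks, with 45% of calories from fat, 0.1% methionine, 1% cholesterol and no choline added. No animals with Cre but without the floxed allele are among the samples, so an effect of Cre and one of the deletion cannot be told apart. Nothing in the labels says that the 3 samples of a genotype came from separate animals, and p-values here measure only the spread among the samples, which may be technical in part.

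NF-kB transcription factors rest in the cytoplasm, bound by inhibitors such as the protein of Nfkbia. Signals from Toll-like receptors, the interleukin-1 receptor or TNF receptors lead to destruction of that inhibitor, and the freed factors switch on cytokine genes together with Nfkbia and Tnfaip3, which end the response. The precursors of interleukin-1 beta and interleukin-18 are cut by caspase-1 within inflammasomes such as that of Nlrp3, so the RNA does not show how much active cytokine is present. In the fatty, injured liver these cytokines come mainly from macrophages, monocytes and neutrophils and act on hepatocytes and stellate cells.

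The promoters of these genes were compared for the sequence that NF-kB binds. RefSeq promoter windows on GRCm38.p6, from 250 bases before to 50 bases after the start of transcription, were at hand for 9 of the 10 genes, Il10 being the exception, in 11 windows, since Nlrp3 and Tnfaip3 have 2 starts each. They were searched on both strands for the 10-base NF-kB consensus GGGRNNYYCC, where R is A or G, Y is C or T and N any base. They were also searched for TATAAA, the core of the TATA box that places the start of many inducible genes. The consensus matched in 5 of the 11 windows, 1 each of Il6, Nlrp3, Tnfaip3, Nfkbia and Csf1, against 8.46% of all 32851 windows. Positions are counted from the start of transcription, with negative ones before it. TATAAA began at position -32 in Il1a, -31 in Il1b and -29 in Tnf, and it lay anywhere in 13.6% of all windows. It also matched elsewhere in windows of Il18, Tnfaip3 and Nfkbia, and no match to it overlapped a match to the consensus. For Nlrp3 and Tnfaip3 the consensus matched in 1 of the 2 windows. A match is a run of letters and not a measured binding site, and no match says only that these letters are not in the window. The 3 windows with a match that belong to the best-measured genes are shown first, on the strand of the gene, with the consensus in capitals. They lie at chr12:55492598-55492897 (minus strand) for Nfkbia, chr10:19015361-19015660 (minus strand) for Tnfaip3 and chr3:107760420-107760719 (minus strand) for Csf1. Tnfaip3 held 2 matches, from -125 to -116 and from -12 to -3. Nfkbia held 1 match from -29 to -20 and Csf1 held 1 from -154 to -145.
Nfkbia: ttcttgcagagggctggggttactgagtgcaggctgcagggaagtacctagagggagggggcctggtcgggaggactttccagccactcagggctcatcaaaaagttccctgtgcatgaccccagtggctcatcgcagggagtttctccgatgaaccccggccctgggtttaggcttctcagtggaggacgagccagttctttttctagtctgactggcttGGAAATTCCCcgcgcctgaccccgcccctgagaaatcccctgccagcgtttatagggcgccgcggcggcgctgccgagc
Tnfaip3: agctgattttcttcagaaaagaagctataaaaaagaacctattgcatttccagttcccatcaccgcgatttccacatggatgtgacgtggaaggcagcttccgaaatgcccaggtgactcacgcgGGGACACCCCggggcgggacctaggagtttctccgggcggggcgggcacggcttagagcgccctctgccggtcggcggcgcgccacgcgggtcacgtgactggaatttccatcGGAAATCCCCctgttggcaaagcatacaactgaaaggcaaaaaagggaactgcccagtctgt
Csf1: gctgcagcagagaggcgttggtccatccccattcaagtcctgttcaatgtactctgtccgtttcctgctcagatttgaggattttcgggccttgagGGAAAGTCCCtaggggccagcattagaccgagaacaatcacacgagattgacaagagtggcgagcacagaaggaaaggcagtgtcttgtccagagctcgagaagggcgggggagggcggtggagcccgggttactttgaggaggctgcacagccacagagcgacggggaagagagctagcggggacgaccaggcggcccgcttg
The windows of Il1b (chr2:129371090-129371389, minus strand) and Tnf (chr17:35201958-35202257, minus strand) held no match to the consensus and are shown with TATAAA in capitals.
Il1b: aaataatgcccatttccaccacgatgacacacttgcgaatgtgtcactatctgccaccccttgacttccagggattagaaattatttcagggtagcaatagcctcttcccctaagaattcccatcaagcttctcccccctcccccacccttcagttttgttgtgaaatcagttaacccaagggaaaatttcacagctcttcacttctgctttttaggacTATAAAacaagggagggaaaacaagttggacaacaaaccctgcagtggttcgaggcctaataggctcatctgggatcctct
Tnf: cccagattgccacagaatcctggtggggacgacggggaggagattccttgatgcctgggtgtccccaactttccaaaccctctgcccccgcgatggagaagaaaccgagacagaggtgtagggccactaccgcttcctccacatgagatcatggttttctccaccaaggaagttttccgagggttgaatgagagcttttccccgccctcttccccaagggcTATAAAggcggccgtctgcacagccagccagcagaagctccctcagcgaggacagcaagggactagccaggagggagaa

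Total counts ran from 21160690 to 26339251 in KO and from 21411113 to 23100862 in WT libraries, and no gene passed the test between the genotypes (0 of 17083 by edgeR's quasi-likelihood test, smallest adjusted p = 0.85). The targeted gene Ephb2 stood at 6.01, 8.87 and 6.95 CPM in KO and 9.46, 8.28 and 12.4 CPM in WT libraries. CPM are read counts per 1e+06 counts of the library, scaled by TMM factors. The log2 fold change of Ephb2, at -0.46, did not pass edgeR's test (95% interval -0.94 to 0.011, adjusted p = 0.85). By design, cells without an active Pdgfrb promoter retain Ephb2, and their part in its level was not tested. Hepatocyte markers summed to 57809 to 72888 CPM in KO and 63620 to 71840 CPM in WT libraries, and no marker of any of 10 liver and immune cell types was at 0 in all libraries. Acute phase RNA, which hepatocytes make in response to inflammatory cytokines, varied widely within each genotype. Saa1 encodes serum amyloid A and measured 57.3, 1857 and 80.4 CPM in KO and 423, 51.6 and 595 CPM in WT libraries 1 to 3. Saa1 and its near-identical copy Saa2 can share reads.

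None of the 8 genes past the filter passed the test between KO and WT liver (0 called by edgeR's quasi-likelihood test, by DESeq2 and by limma-voom, adjusted p from 0.85 to 0.936 in edgeR). A gene was called at a Benjamini-Hochberg adjusted p under 0.05 over all genes, and 0.00% of all genes were called. At an unadjusted p under 0.05, the count was 0 of 8 against 5.19% of all genes. This 0 depended on the libraries and the filter. It was 2 without WT replicate 2 (Il1b and Nlrp3), where 1858 of 17411 genes reached that p. It was 1 without KO replicate 1 (Il1a), without KO replicate 3 (Csf1) or without a count filter (Il1b). In these 3 fits 892 of 17440, 452 of 17428 and 1390 of 29609 genes reached it. The levels of KO and WT libraries overlapped in all 8 genes, whereas 11.1% of all genes had no overlap. Of the 8, 5 had a negative log2 fold change (KO over WT) and 3 a positive one, with a median of -0.17, where all genes had a median of -0.0048. The intervals in the plot of fold changes show what these libraries can resolve. That of Il1b reached down to 0.427 times the WT level, whereas that of Nfkbia ran from 0.765 to 1.07 times. In whole liver, fewer cells of a type and less RNA per cell cannot be told apart.

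**Figure D1:**
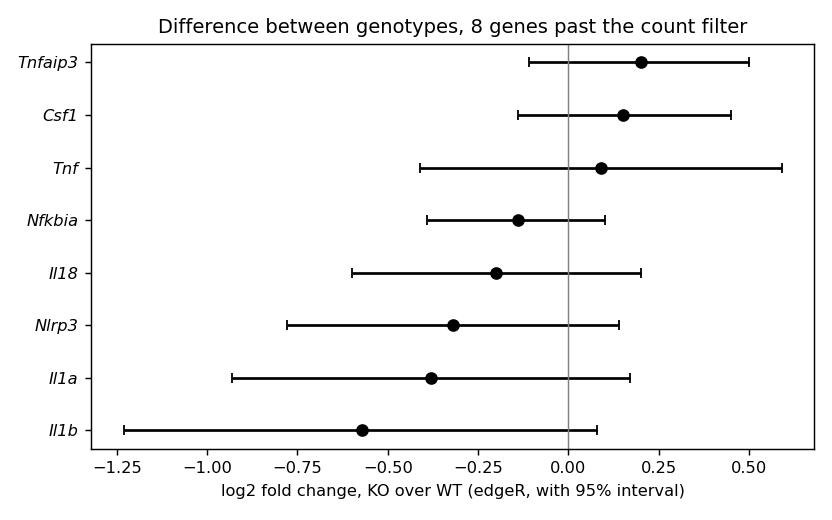
The log2 fold change of KO over WT liver is shown on the x axis for each of 8 genes, with its 95% interval from edgeR (n = 3 libraries per genotype). All 8 intervals include 0, from Il1b at -0.57 to Tnfaip3 at 0.20.

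The interleukin-1 genes lay lower in KO liver by value, with wide spread. Il1b encodes interleukin-1 beta, a secreted activator of NF-kB in neighbouring cells, and lies on chromosome 2 of GRCm38 (129364570 to 129371139, minus strand). It was at 4.05, 4.78 and 2.94 CPM in KO libraries 1 to 3 and at 7.63, 3.86 and 6.12 CPM in WT libraries 1 to 3. WT replicates 1 and 3 lay above all KO libraries, and WT replicate 2 lay below KO replicates 1 and 2. The mean was 3.92 ± 0.925 CPM in KO and 5.87 ± 1.89 CPM in WT liver (SD, n = 3 each), a log2 fold change of -0.57 (SE 0.28, 95% interval -1.23 to 0.08) that did not pass edgeR's test (adjusted p = 0.85). It was -0.81 without WT replicate 2 and -0.35 without WT replicate 1 (edgeR adjusted p = 0.374 and 0.92).

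Il1a encodes interleukin-1 alpha, which acts on the same receptor and is active without cleavage. It lies close to Il1b on chromosome 2 (129299610 to 129309972, minus strand). Its level was 9.54, 6.86 and 4.72 CPM in KO and 8.42, 9.49 and 9.52 CPM in WT libraries. The WT libraries lay close together and the KO libraries were spread over a 2.02-fold range, with KO replicate 1 at the top of all 6. The log2 fold change was -0.38 (SE 0.24, 95% interval -0.93 to 0.17). It was -0.66 without KO replicate 1 and -0.16 without KO replicate 3 (edgeR adjusted p = 0.843 and 1). Il1a shares 222 exonic bases with the antisense gene Gm14023 and Il1b shares 25 with the antisense gene Il1bos. The strand setting of the counting is not given in the sources used here, so reads of these pairs cannot be told apart with certainty.

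Both interleukin-1 genes thus had their lowest level in KO replicate 3, but their order over the other libraries differed. Per kilobase of exon, Il1a exceeded Il1b in every library, 2.27, 1.39 and 1.55 times in KO and 1.07, 2.37 and 1.5 times in WT replicates 1 to 3. This ratio compares counts per length and rests on 66 to 226 reads per gene and library.

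**Figure D2:**
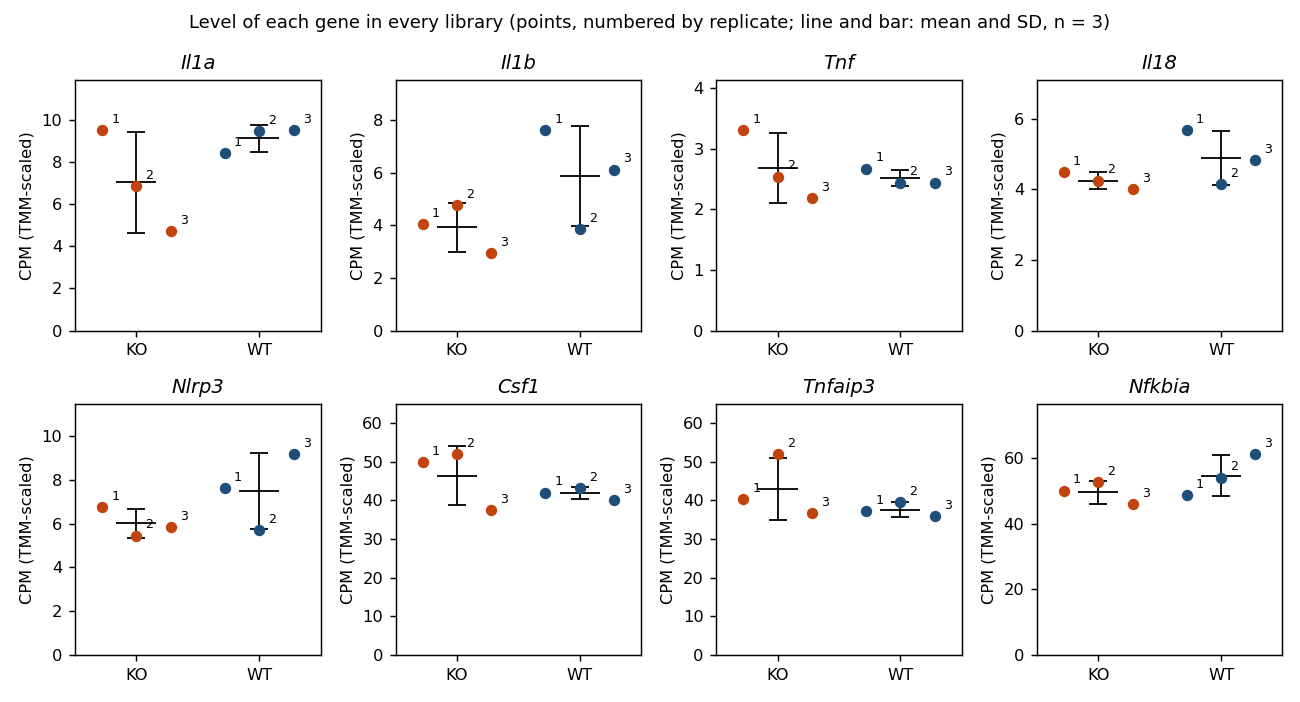
The level in CPM (TMM-scaled, y axis from 0, a scale per panel) is plotted for 8 genes in KO and WT libraries, with points numbered by replicate and the mean and SD (n = 3) in black. In every panel the points of KO and WT overlap, and KO replicate 3 is the lowest of all 6 libraries in 6 of the 8.

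Inflammasome genes among the 10 lay lower in KO liver by value, with 95% intervals that included 0. Nlrp3, the sensor that assembles the caspase-1 complex after cell damage, lies on chromosome 11 (59541568 to 59566956, plus strand). It stood at 6.75, 5.46 and 5.84 CPM in KO and 7.63, 5.71 and 9.18 CPM in WT libraries. KO and WT overlapped through WT replicate 2, and the KO libraries were the closer to each other. Its log2 fold change was -0.32 (SE 0.20, 95% interval -0.78 to 0.14, edgeR adjusted p = 0.85), and it was -0.48 without WT replicate 2 and -0.15 without WT replicate 3. Il18, whose product drives interferon-gamma release from lymphocytes, lies on chromosome 9 (50554827 to 50581840, plus strand). It was measured at 4.49, 4.25 and 4.01 CPM in KO and 5.69, 4.16 and 4.83 CPM in WT libraries. The KO libraries lay within 1.12-fold of each other, with KO replicates 1 and 2 inside the lower part of the WT range and KO replicate 3 below it. The log2 fold change was -0.20 (SE 0.17, 95% interval -0.60 to 0.20, edgeR adjusted p = 0.858). Leaving out a library put it between -0.31 (without WT replicate 2) and -0.087 (without WT replicate 1).

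Tnf lay close to its WT level in KO liver. It encodes tumour necrosis factor, a cytokine of macrophages that can kill cells or activate NF-kB through its receptors, and it lies on chromosome 17 (35199381 to 35202007, minus strand). Levels were 3.31, 2.54 and 2.18 CPM in KO and 2.67, 2.44 and 2.44 CPM in WT libraries. All 3 WT libraries fell inside the KO range. The log2 fold change of 0.09 (SE 0.22, 95% interval -0.41 to 0.59, edgeR adjusted p = 0.936) was -0.09 without KO replicate 1 and 0.21 without KO replicate 3. These values rest on 49 to 76 reads per library.

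Il6 and Il10 were close to the limit of detection. Il6 encodes interleukin-6, the main inducer of acute phase genes in hepatocytes, and Il10 encodes an inhibitor of macrophage cytokine production. Il6 (chromosome 5, 30013114 to 30019981, plus strand) had 3, 1 and 4 reads in KO and 2, 1 and 2 reads in WT libraries. Summed over the libraries this was 0.111 CPM in KO (exact Poisson 95% interval 0.0481 to 0.22) and 0.077 CPM in WT liver (0.025 to 0.18), so a difference was not detectable at this depth. Il10 (chromosome 1, 131019845 to 131024974, plus strand) had 2, 3 and 2 reads in KO and 0, 2 and 12 reads in WT libraries. WT replicate 3 alone stood at 0.574 CPM (0.297 to 1.00), and the 0 in WT replicate 1 allows a level of up to 0.149 CPM by the value of 3 reads, or 0.183 CPM by the upper end of the two-sided Poisson interval. Two-sided exact permutation tests gave p = 0.5 for Il6 and p = 1 for Il10, where 3 against 3 libraries cannot go below 0.1. The Poisson intervals and the value of 3 reads cover counting error only.

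**Figure D3:**
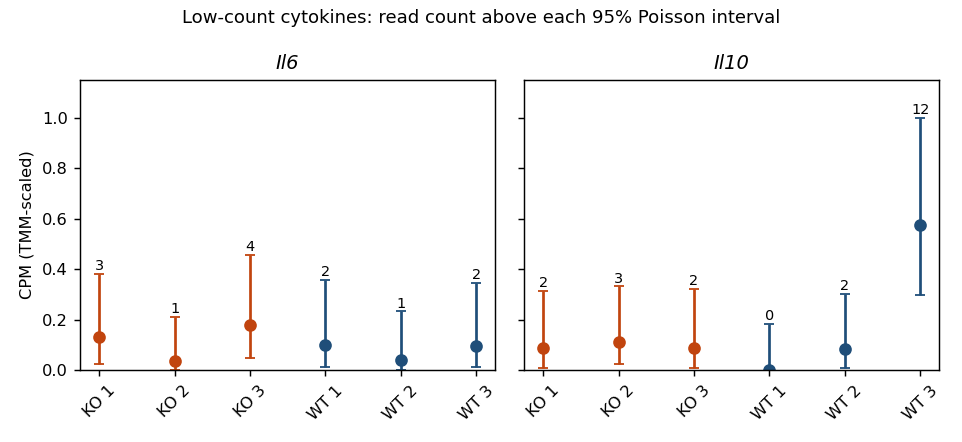
CPM (TMM-scaled, y axis) of Il6 and Il10 are given for each library (x axis), with exact 95% Poisson intervals and the read count above each. WT replicate 3, with 12 reads of Il10, lies above the other 5 libraries, which had 0 to 3.

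The NF-kB feedback genes were far better measured, with 748 to 1390 reads per library. Nfkbia encodes the inhibitor that holds NF-kB in the cytoplasm, and Tnfaip3 encodes A20, an enzyme that edits ubiquitin chains to end TNF and Toll-like receptor signalling. Nfkbia (chromosome 12, 55489410 to 55492647, minus strand) stood at 50.1, 52.7 and 45.9 CPM in KO and 48.8, 54.1 and 61.2 CPM in WT libraries. WT replicate 3 was the highest and KO replicate 3 the lowest, with the other 4 between 48.8 and 54.1 CPM. The log2 fold change was -0.14 (SE 0.11, 95% interval -0.39 to 0.10, edgeR adjusted p = 0.851), with -0.22 without WT replicate 1 and -0.055 without WT replicate 3. Tnfaip3 (chromosome 10, 19000910 to 19015657, minus strand) stood at 40.3, 51.9 and 36.6 CPM in KO and 37.1, 39.6 and 35.8 CPM in WT libraries. KO replicate 2 stood apart from the other 5, which lay between 35.8 and 40.3 CPM. The log2 fold change of 0.20 (SE 0.13, 95% interval -0.11 to 0.50, edgeR adjusted p = 0.85) was 0.035 without KO replicate 2 and 0.30 without KO replicate 3. The windows of both genes hold the NF-kB consensus printed above. Nfkbia was highest in WT replicate 3, where Tnfaip3 was lowest. The level of Tnfaip3 per kilobase of exon was 0.179, 0.22 and 0.178 times that of Nfkbia in KO and 0.169, 0.163 and 0.13 times in WT libraries. These ratios were chosen after their values were seen and were not tested.

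Csf1 encodes the colony stimulating factor that macrophages need to survive and multiply. It lies on chromosome 3 (107741048 to 107760469, minus strand) and stood at 49.8, 51.9 and 37.5 CPM in KO and 42.0, 43.2 and 40.1 CPM in WT libraries. KO replicates 1 and 2 lay above all WT libraries and KO replicate 3 below them. The mean was 46.4 ± 7.75 CPM in KO and 41.8 ± 1.57 CPM in WT liver (SD, n = 3 each), with a log2 fold change of 0.15 (SE 0.13, 95% interval -0.14 to 0.45, edgeR adjusted p = 0.858). It was 0.28 without KO replicate 3, 0.063 without KO replicate 2 and 0.097 without KO replicate 1 (edgeR adjusted p = 1, 0.934 and 0.914).

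Per kilobase of exon, the 10 genes spanned a wide range of levels, given here as RPKM over all 6 libraries. Nfkbia was highest at 32.4 ± 3.28 RPKM (SD, n = 6) and its lowest library lay above every library of the other 9 genes. Csf1 followed at 8.35 ± 1.06 RPKM, then Tnfaip3 at 5.57 ± 0.831, Il18 at 4.43 ± 0.602 and Il1a at 4.10 ± 0.989 RPKM. Il1b came next at 2.57 ± 0.895, then Nlrp3 at 1.67 ± 0.353 and Tnf at 1.58 ± 0.235 RPKM. From Csf1 to Tnf the ranges of neighbours in this order overlapped. Il10 was at 0.121 ± 0.158 and Il6 at 0.0401 ± 0.022 RPKM, and both lay below every library of the other 8 genes.

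No library was the highest for more than 2 of the 8 genes past the filter. KO replicate 3 was the lowest library for 6 of the 8, all but Nlrp3 and Tnfaip3, and the highest for none. It was the lowest library for 18.3% of all genes tested. The highest library was KO replicate 1 for Il1a and Tnf, KO replicate 2 for Tnfaip3 and Csf1, WT replicate 1 for Il1b and Il18, and WT replicate 3 for Nlrp3 and Nfkbia. KO replicate 3 also held the lowest sum of Kupffer cell markers, which stood at 390, 306 and 184 CPM in KO and 401, 308 and 825 CPM in WT libraries. Sums of macrophage markers that resident and recruited cells share, at 1339, 1613 and 1404 CPM in KO and 1497, 1259 and 1791 CPM in WT libraries, were lowest in WT replicate 2 instead. KO replicate 3 was also lowest in the sums of stellate (913 CPM) and sinusoidal endothelial markers (310 CPM). Of the stellate markers, Dcn and Reln, the largest parts of that sum, and Colec11 were lowest in KO replicate 3. Lrat, Rgs5, Pdgfrb, Hgf and Des were not, and all were named after their values were seen. The part of these cell markers in the levels of the cytokine genes was not tested.

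Il1b alone had its 3 highest levels in the libraries with the most Saa1 (WT replicates 1 and 3 and KO replicate 2). That is 1 of the 8 genes (12.5%) against 10.6% of all genes, so the match does not set these genes apart. Within each genotype those libraries also held the most neutrophil marker RNA, at 25.8, 85.6 and 20.1 CPM in KO and 52.7, 16 and 137 CPM in WT libraries. S100a8, a neutrophil calcium-binding protein, was at 5.71, 22.3 and 4.50 CPM in KO and 11.9, 4.28 and 30.4 CPM in WT libraries. The defining marker Ly6g had 4, 17 and 1 reads in KO and 3, 0 and 9 reads in WT libraries. The 3 highest sums of pan-macrophage markers fell in these libraries too, at 1613 CPM in KO replicate 2 and at 1497 and 1791 CPM in WT replicates 1 and 3. Taken singly, 4 of 7 pan-macrophage markers and 2 of 6 Kupffer cell markers had their 3 highest levels there. The part of neutrophil or macrophage RNA in the level of Il1b was not tested.

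**Figure D4:**
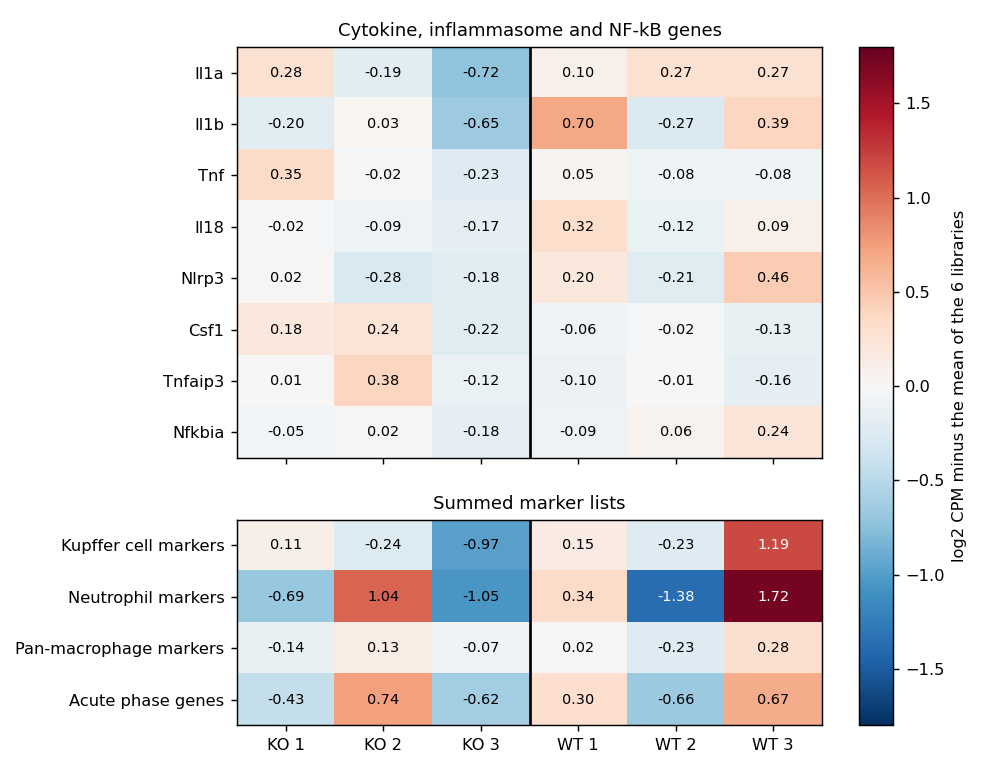
Colours and numbers give log2 CPM minus the mean of the 6 libraries for 8 genes (upper panel) and for summed marker lists (lower panel), with KO libraries left of WT libraries. KO replicate 3 is at -0.72 for Il1a, -0.65 for Il1b and -0.97 for Kupffer cell markers, while acute phase genes are high in KO replicate 2 and in WT replicates 1 and 3.

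The genes whose pattern over the 6 libraries was most like that of a member were found by the root mean square difference of mean-centred log2 CPM, over 15026 genes with a mean of at least 1 CPM. For Il1b, whose own root mean square deviation was 0.442, these were Oplah (0.118), Egfr (0.121) and Eif4ebp3 (0.122). Egfr, the epidermal growth factor receptor, stood at 447, 551 and 363 CPM in KO and 997, 446 and 854 CPM in WT libraries. For Nlrp3 (own deviation 0.261) they were Hnf4a (0.0461), a hepatocyte transcription factor, Hip1r (0.0570) and Hist2h3c2 (0.0577). For Tnfaip3 (own deviation 0.18) they were Phospho2 (0.0243), Ankrd55 (0.0363) and Sulf1 (0.0423). With 6 libraries and this many genes, some always lie close to any pattern.

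The wider pathway was described by 8 lists, in which no gene passed edgeR's test in either direction. Among all genes tested 49% had a positive log2 fold change. NF-kB subunits, kinases and inhibitors had 11 of 27 positive, with a median of -0.052. Those with the smallest p were Traf2 (0.26, SE 0.094), an adaptor of TNF receptors, Traf1 (0.45, SE 0.17), its relative, and Cyld (0.19, SE 0.082), a deubiquitinase that restrains NF-kB. Traf2 stood at 31.0, 31.5 and 27.0 CPM in KO and 25.6, 25.2 and 24.1 CPM in WT libraries, without overlap (adjusted p = 0.85 in edgeR). In this list 3 genes were higher and 2 lower in KO without overlap, where 11.1% of all genes had no overlap. A small p favours lack of overlap, so for genes named by p, here and in the lists below, it adds nothing. The subunits Rela and Nfkb1, which form the main NF-kB dimer, stood close to WT levels, Rela at -0.11 (SE 0.13) and Nfkb1 at 0.06 (SE 0.082) on the log2 scale, and were named after their values were seen.

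TNF ligands, receptors and adaptors had 6 of 19 tested genes positive, with a median log2 fold change of -0.036. Tnfrsf9, the lymphocyte receptor 4-1BB, was at 0.523, 0.341 and 0.357 CPM in KO and 0.891, 0.462 and 2.49 CPM in WT libraries, with WT replicate 3 far above the rest. Tnfsf10, the death ligand TRAIL, had a difference of 0.46 (SE 0.21) on the log2 scale. Tnfrsf1a, the main TNF receptor of liver cells, was at 140, 147 and 119 CPM in KO and 169, 124 and 194 CPM in WT libraries. Lta, lymphotoxin alpha, did not pass the filter.

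In the interleukin-1 and interleukin-18 family, 4 of 16 tested genes were positive and the median log2 fold change was -0.18. Tollip, an adaptor that dampens interleukin-1 receptor signalling, was at 63.5, 67.5 and 62.9 CPM in KO and 78.0, 67.8 and 86.5 CPM in WT libraries, without overlap. The receptor genes Il18r1 (0.46, SE 0.25) and Il1r1 (-0.47, SE 0.27) had the next smallest p. Il1r1 was at 86.7, 122 and 84.1 CPM in KO and 126, 89.9 and 192 CPM in WT libraries, so that its 3 highest values fell in the libraries in which Il1b was also highest.

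Inflammasome and pyroptosis genes had 6 of 16 positive, with a median log2 fold change of -0.052. Nlrp12, a sensor protein related to Nlrp3, stood at 34.2, 19.1 and 30.5 CPM in KO and 51.2, 45.6 and 56.8 CPM in WT libraries, without overlap. Its log2 fold change of -0.87 (SE 0.20, 95% interval -1.34 to -0.41) had the smallest p in the list and did not pass over all genes (edgeR adjusted p = 0.85). Mefv (-0.75, SE 0.45), the gene of pyrin, and Nlrp1b (0.25, SE 0.15), another sensor, came next. Casp1, the protease that cuts the precursors of interleukin-1 beta and interleukin-18, was at 8.59 ± 0.749 CPM in KO and 8.29 ± 1.23 CPM in WT liver (SD, n = 3 each) and was named after its values were seen.

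Receptors and signal transducers of the interleukin-6 and interleukin-10 families had 7 of 19 tested genes positive and a median log2 fold change of -0.044. Il6ra, the receptor chain that lets hepatocytes respond to interleukin-6, stood at 49.6, 54.2 and 43.4 CPM in KO and 62.8, 62.7 and 80.2 CPM in WT libraries, without overlap. Its log2 fold change was -0.48 (SE 0.13, 95% interval -0.78 to -0.18, edgeR adjusted p = 0.85). Clcf1 (0.41, SE 0.15), a cytokine of the family, and Il11ra1 (0.17, SE 0.084), the interleukin-11 receptor, had the next smallest p. Socs3, the feedback inhibitor that interleukin-6 induces, was at 17.1, 27.6 and 15.3 CPM in KO and 54.7, 13.8 and 46.9 CPM in WT libraries, and was named after its values were seen.

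Colony stimulating factors and their receptors had 2 of 9 tested genes positive and a median log2 fold change of -0.17. Csf2rb (-0.37, SE 0.22), the shared receptor chain of several such factors, Spi1 (-0.31, SE 0.19), the macrophage transcription factor PU.1, and Kitl (0.27, SE 0.17), stem cell factor, had the smallest p. Csf1r, the receptor for the Csf1 product and itself a macrophage marker, was at 252, 286 and 220 CPM in KO and 292, 227 and 405 CPM in WT libraries. The growth factor genes Il3 and Csf3 had no read in any library, and Csf2 had 1.

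Toll-like receptors and their co-receptors had 6 of 16 positive and a median log2 fold change of -0.10. Tlr9, the receptor for bacterial-type DNA, stood at 9.41, 7.81 and 8.02 CPM in KO and 5.99, 5.42 and 6.79 CPM in WT libraries, without overlap. The adaptor Tirap (-0.31, SE 0.11) and Ly96 (-0.50, SE 0.21), the co-receptor for endotoxin, lay lower without overlap. None of the 3 passed over all genes (edgeR adjusted p = 0.85 for each).

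Genes that NF-kB is known to induce had 6 of 20 positive and a median log2 fold change of -0.099. Zc3h12a (-0.29, SE 0.15), an RNase that degrades cytokine RNA, the neutrophil chemokine Cxcl2 (-0.38, SE 0.24) and Ier3 (-0.55, SE 0.35), an early response gene, had the smallest p. At an unadjusted p under 0.05 stood 3 of 27 NF-kB core genes, 1 of 19 TNF genes, 1 of 16 interleukin-1 genes, 1 of 16 inflammasome genes, 2 of 19 interleukin-6 genes, 0 of 9 colony stimulating factor genes, 3 of 16 Toll-like receptor genes and 0 of 20 response genes. These shares are set against 5.19% of all genes, and edgeR, DESeq2 and limma-voom called none of them.

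**Figure D5:**
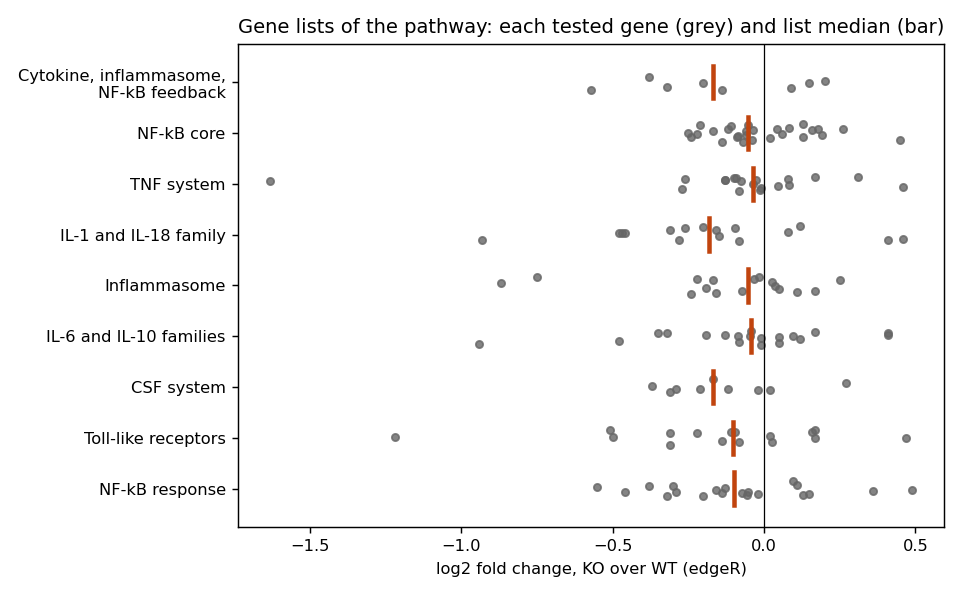
Each grey point is the log2 fold change (x axis, KO over WT liver, edgeR) of a tested gene, grouped by list, and the bar is the median of the list. All 9 medians lie below 0, between -0.18 and -0.036, and no point passed the test. The medians share the same libraries and are not independent. WT replicate 3 held the highest summed CPM of every pathway list. Its sum was 843 against 344 to 557 CPM for Toll-like receptors and 861 against 713 to 834 CPM for TNF genes. The sum of the chosen genes was highest in KO replicate 2, at 181 CPM. The median of the chosen genes past the filter was -0.10 without WT replicate 3. Whether the medians of the pathway lists stay below 0 without that library was not tested. Vertical scatter within a row only separates the points.

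Marker lists of other cells are given as summed levels, since none of their genes was called. Markers of recruited monocytes or macrophages summed to 857, 1057 and 947 CPM in KO and 980, 817 and 974 CPM in WT libraries. T or NK cell markers summed to 17.3, 10.0 and 13.2 CPM in KO and 10.2, 10.4 and 15.6 CPM in WT libraries, and B or plasma cell markers to 5.79, 7.58 and 6.82 CPM in KO and 5.69, 8.02 and 5.79 CPM in WT libraries. Markers of stellate cells, the labelled target of Cre, summed to 994, 1031 and 913 CPM in KO and 961, 1164 and 1120 CPM in WT libraries. Sinusoidal endothelial markers summed to 417, 360 and 310 CPM in KO and 380, 404 and 522 CPM in WT libraries, and cholangiocyte markers to 939, 1308 and 1110 CPM in KO and 705, 934 and 943 CPM in WT libraries. Acute phase genes summed to 17538, 39371 and 15322 CPM in KO and 29092, 14916 and 37670 CPM in WT libraries. KO and WT overlapped in every one of these sums, for cholangiocyte markers by 939 CPM in KO replicate 1 against 943 CPM in WT replicate 3. Most of the cholangiocyte sum was Spp1, at 803, 1166 and 970 CPM in KO and 613, 805 and 834 CPM in WT libraries. The overlap of that sum thus mainly reflects Spp1, which was named after its values were seen. All 6 cholangiocyte markers had a positive log2 fold change (median 0.38), and WT replicate 1 was the lowest library for each of them. At an unadjusted p under 0.05 stood 3 of the 6, against 5.19% of all genes. Without overlap were 3, against 11.1% of all genes. All 6 Kupffer cell markers had a negative log2 fold change (median -0.88), 2 of them at an unadjusted p under 0.05. All 7 tested neutrophil markers were negative too (median -0.69), 0 of them at that p. Of 7 pan-macrophage markers 5 were negative (median -0.14) and 1 reached that p. WT replicate 3 held the highest Kupffer cell sum, at 825 CPM, with WT replicate 1 next at 401 CPM. It also held the highest neutrophil sum, at 137 CPM. KO replicate 2, at 85.6 CPM, lay above WT replicates 1 and 2 there, at 52.7 and 16 CPM.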

How the data were processed

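Per the labels' protocols, poly(A) RNA went into directional libraries. The table deposited by the authors holds raw read counts, as whole numbers for each Ensembl ID in 6 columns. The submitters' processing notes list STAR 2.7.6a, featureCounts 1.6.3 and DESeq2 1.30.0 beside GRCm38 and mm10, with no role for any of them. The annotation release and strand setting of the counting are not stated in these sources.

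Symbols, coordinates and exonic lengths came from GENCODE M21 (GRCm38), which held 52083 of 55416 IDs (94%). The test was edgeR 4.0.16 (glmQLFit, glmQLFTest) under R 4.3.3, on genes kept by filterByExpr (minimum count 10, minimum total 15), with TMM scaling, a single genotype term and Benjamini-Hochberg adjustment across 17083 genes. An SE is the absolute log2 fold change over the root of F. Logged levels used a prior count of 2. Alternatives were other scalings and filters, DESeq2 1.42.0, limma-voom (3.58.1), the replicate number as a block and each library left out. The fits were tested on simulated counts. Members and lists were chosen with earlier results of these data known. Named besides the members were Ephb2, Saa1, S100a8, the 3 genes of smallest p per pathway list and the 3 most similar genes. Marker lists are given as sums. Other genes are said to be chosen after their values were seen, or serve as list context (Csf1r, Lta, Ly6g, Il3, Csf2, Csf3). Il36g and Fcn3 had no match.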

Additional observations from a re-analysis of the deposited data

How the results depend on the processing

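The count of called members was 0 under all 14 alternatives, and none of the 8 pathway lists gained a called gene under any of the 13 run for them. Over all genes edgeR called 0. DESeq2 called 7, edgeR without a count filter 3, and leaving out a library gave 0 to 2, with the 2 when WT replicate 3 was left out. Genes at an unadjusted p under 0.05 numbered 886, against 1390 without a filter and 452 to 1858 with a library left out (452 without KO replicate 3, 1858 without WT replicate 2). Of the 886, 527 were higher in KO and 359 lower, and by library size alone 804 and 153. The median of the 8 members stayed negative, from -0.23 to -0.10 with a library left out. Tnf changed sign without KO replicate 1 (-0.09, range -0.09 to 0.21), and the CPM difference of Il10, KO minus WT, was 0.0547 without WT replicate 3. The cause was not tested beyond the library left out. With the replicate number as a block, 0 genes were called and 537 had an unadjusted p under 0.05. Same-numbered libraries did not deviate together (correlations -0.0262, -0.438 and -0.313), and the numbers were used as sample names only. With 3 libraries per genotype this cannot exclude a pairing. At 49 to 76 reads for Tnf, and fewer for Il6 and Il10, depth limits what can be seen.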
